A study of Mus musculus with 22 samples.

Results

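The type I interferon-stimulated genes described here are 39 antiviral genes and the STAT and IRF factors that drive them, measured in microglia sorted from the brains of aged mice with a model of Gulf War Illness. They were taken by symbol from a given list, which was chosen with earlier results of these data known. All 39 were among the 54532 genes of the deposited count table, and all 39 passed the filter on low counts that left 16554 genes for testing. Microglia are the resident macrophages of the brain. All mice were male C57BL/6J (C57/BL6 in the labels) and 17.5 months old at the end, and live cells with intermediate CD45, with CD11b and without CD11a were collected by flow cytometry as microglia. Gulf War (GW) mice had received pyridostigmine bromide (PB) at 0.7 mg/kg and the insecticide permethrin at 200 mg/kg by intraperitoneal injection each day for 10 days from an age of 10 weeks, and control (Ctrl) mice had received vehicle. Cannabidiol (CBD), a plant cannabinoid, was given to some GW mice late in life at 30 mg/kg daily for 28 days and then every 2 days for 2 weeks. Lipopolysaccharide (LPS), a bacterial cell wall component that activates Toll-like receptor signalling, was given at 0.33 mg/kg, and brains were taken 24 h later.

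The 6 groups were GW mice given CBD and LPS (GW-CBD-LPS, 4 libraries), GW mice given CBD and the saline buffer PBS (GW-CBD-PBS, 3 libraries), GW mice given LPS (GW-LPS, 3 libraries), GW mice given PBS (GW-PBS, 4 libraries), control mice given LPS (Ctrl-LPS, 4 libraries) and control mice given PBS (Ctrl-PBS, 4 libraries). CBD is compared among GW mice, since none of the 22 libraries came from control mice given CBD. Nothing in the labels ties each library to a mouse of its own, and the p-values therefore measure the spread between libraries, which may be technical. Levels are given as CPM, the read counts of a gene scaled to the size of its library with TMM factors, and fold changes are on the log2 scale with their standard error (SE).

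Type I interferons are secreted proteins that bind the IFNAR1 and IFNAR2 receptor chains and activate the kinases JAK1 and TYK2. These phosphorylate STAT2, which joins IRF9 in a complex that binds the interferon-stimulated response element (ISRE) in promoters and switches on a large set of genes, many of which block viral RNA, viral protein synthesis or viral release. Toll-like receptor 4, the LPS receptor, can start interferon production through the adaptor TICAM1, and microglia with this gene programme are found in ageing, infection and amyloid models.

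Promoters of 30 members were in the RefSeq promoter table of GRCm38.p6, each 300 bases long with 250 bases before the start and 50 after it. The ISRE core, spelled GAAA, any 2 bases and GAAA again, was searched on both strands with overlapping matches counted. It was found in 15 of these 30 (50%) and in 1079 of 27025 genes of the table (3.99%). A match is a string of letters and not evidence of binding. Isg15 is shown because it holds 3 overlapping matches, Ifit1, Ifit3 and Ifit3b because they are neighbours with a pair of matches each, Stat2 as a driver, and Oasl2 and Slfn2 because they had the largest LPS responses in control mice with no match. Capitals mark ISRE core letters, read on either strand, and each line runs 5′ to 3′ on the strand of its gene.
Isg15: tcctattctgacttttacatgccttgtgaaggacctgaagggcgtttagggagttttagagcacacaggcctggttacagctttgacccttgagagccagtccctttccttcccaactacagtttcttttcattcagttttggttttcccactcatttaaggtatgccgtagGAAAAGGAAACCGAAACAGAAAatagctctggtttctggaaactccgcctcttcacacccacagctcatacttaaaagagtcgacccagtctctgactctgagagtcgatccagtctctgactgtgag
Ifit1: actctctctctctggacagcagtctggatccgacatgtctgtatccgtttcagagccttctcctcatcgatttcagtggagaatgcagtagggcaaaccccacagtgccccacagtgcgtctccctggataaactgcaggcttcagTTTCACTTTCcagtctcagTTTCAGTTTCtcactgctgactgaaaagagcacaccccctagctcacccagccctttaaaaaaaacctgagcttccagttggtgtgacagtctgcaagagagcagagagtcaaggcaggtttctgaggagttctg
Ifit3: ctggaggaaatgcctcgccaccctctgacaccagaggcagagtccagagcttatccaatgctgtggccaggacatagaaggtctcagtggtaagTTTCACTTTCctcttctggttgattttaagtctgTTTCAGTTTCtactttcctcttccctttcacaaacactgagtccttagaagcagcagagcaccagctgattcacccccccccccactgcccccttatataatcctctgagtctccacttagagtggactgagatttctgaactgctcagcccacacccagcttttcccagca
Ifit3b: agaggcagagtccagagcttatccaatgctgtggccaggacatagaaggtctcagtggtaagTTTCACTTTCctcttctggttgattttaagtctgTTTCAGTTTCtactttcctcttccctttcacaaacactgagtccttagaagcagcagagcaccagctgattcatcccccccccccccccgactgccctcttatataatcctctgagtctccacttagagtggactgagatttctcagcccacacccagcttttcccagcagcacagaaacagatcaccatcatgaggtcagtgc
Stat2: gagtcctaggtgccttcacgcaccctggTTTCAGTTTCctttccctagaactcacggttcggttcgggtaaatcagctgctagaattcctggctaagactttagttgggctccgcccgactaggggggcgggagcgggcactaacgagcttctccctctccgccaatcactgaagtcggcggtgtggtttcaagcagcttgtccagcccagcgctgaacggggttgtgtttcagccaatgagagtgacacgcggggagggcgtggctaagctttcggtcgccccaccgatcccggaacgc
Oasl2: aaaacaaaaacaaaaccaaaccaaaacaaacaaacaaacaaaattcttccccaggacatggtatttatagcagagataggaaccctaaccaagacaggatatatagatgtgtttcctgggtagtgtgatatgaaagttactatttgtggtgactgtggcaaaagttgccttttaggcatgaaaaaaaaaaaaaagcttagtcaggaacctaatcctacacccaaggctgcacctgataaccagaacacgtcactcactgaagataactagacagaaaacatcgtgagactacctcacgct
Slfn2: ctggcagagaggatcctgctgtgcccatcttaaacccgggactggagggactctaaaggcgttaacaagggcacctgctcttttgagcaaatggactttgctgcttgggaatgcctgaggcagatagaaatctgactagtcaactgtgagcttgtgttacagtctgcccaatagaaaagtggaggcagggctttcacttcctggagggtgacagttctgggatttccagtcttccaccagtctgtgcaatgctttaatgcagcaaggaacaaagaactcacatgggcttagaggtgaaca
The windows are chr4:156200769-156201068 on the minus strand for Isg15, and on the plus strand chr19:34640639-34640938 for Ifit1, chr19:34583279-34583578 for Ifit3, chr19:34607707-34608006 for Ifit3b, chr10:128270248-128270547 for Stat2, chr5:114896684-114896983 for Oasl2 and chr11:83064862-83065161 for Slfn2. In Isg15 the matches begin 78, 72 and 66 bases before the start. The pair lies 104 and 85 bases before the start in Ifit1, 156 and 122 bases in Ifit3, and 188 and 154 bases in Ifit3b. The Stat2 match begins 222 bases before the start.

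Several members are neighbours in the genome (GRCm38, GENCODE M21). Ifit2, Ifit3, Ifit3b and Ifit1 lie in that order on chromosome 19 between 34550694 and 34650009. Oasl2 and Oasl1 lie close together on chromosome 5, as do Oas2, Oas3 and Oas1a further along. Rsad2 and Cmpk2 are a divergent pair on chromosome 12, and Slfn5, Slfn8 and Slfn2 share a stretch of chromosome 11. Of the 39 members 8 hold a stretch of at least 300 bases that is at least 95% identical to another gene, so the split of their reads is uncertain. The longest such stretches were those of Oas1a with Oas1g (97.6% identity over 1861 bases) and Ifit3 with Ifit3b (97.8% over 1700 bases), and the highest identity was that of Herc6 with Gm45193 (100% over 688 bases). Gm45193 also overlaps the exons of Herc6 on the same strand by 1269 bases. The match may thus be the same sequence annotated under another name, and not a separate copy. GENCODE lists Mx2 as a polymorphic pseudogene. The exons of 14 members overlap another gene, up to 16.8% of the exon bases of Adar (with Chrnb2) and of Ifi35 (with Gm11626).

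Per library, depth was 28676930 to 40458326 counts. The summed CPM of T and NK cell markers was at most 25.8, and that of neuron markers at most 6.16. Sums reached 1568 CPM for erythroid, 613 for oligodendrocyte, 287 for astrocyte, 143 for B and plasmacytoid dendritic cell and 92.4 for endothelial markers. The median erythroid sum was 279 CPM in GW-CBD-LPS, against 231 CPM in GW-CBD-PBS. It was 101 CPM in GW-LPS, against 819 CPM in GW-PBS, and 129 CPM in Ctrl-LPS, against 559 CPM in Ctrl-PBS. The 14 neutrophil markers set 3 libraries apart. Their sum was 3114 CPM in replicate 1 of Ctrl-LPS, 28207 CPM in replicate 3 of Ctrl-PBS and 2056 CPM in replicate 1 of GW-PBS, and between 429 and 1109 CPM in each of the other 19. The same libraries were the highest for 7 monocyte markers, at 581, 1923 and 152 CPM, against 16.1 to 70.3 CPM in the other 19. Counts of called members are given with and without these 3 libraries. The other 19 were not alike in neutrophil markers, which their sums do not show. Of the 14 markers, 2 reached 1 CPM in replicate 1 of GW-CBD-LPS, against 11 in replicate 3 of GW-LPS. Retnlg, a neutrophil gene, was at 33.2 CPM in the latter library, and at 31.0 CPM in replicate 1 of GW-PBS. S100a9 went the other way, at 88.4 against 390 CPM. Leaving out the 3 libraries thus does not remove all neutrophil marker RNA. The sum of 10 microglia markers was 41859 to 50088 CPM in GW-CBD-LPS (median 46258), against 48149 to 51362 CPM in GW-CBD-PBS (median 49101). It was 29851 to 38336 CPM in GW-LPS (median 36507), against 41900 to 48058 CPM in GW-PBS (median 46065), and 23315 to 35256 CPM in Ctrl-LPS (median 29068), against 41104 to 53129 CPM in Ctrl-PBS (median 49415). The microglia sum was thus lower after LPS without overlap in GW and control mice, the arm with the most called members having the lowest values, and overlapped in CBD-treated mice. The sum of 8 markers of border-associated macrophages had medians of 309 CPM in GW-CBD-LPS, against 283 CPM in GW-CBD-PBS, 511 CPM in GW-LPS, against 272 CPM in GW-PBS, and 406 CPM in Ctrl-LPS, against 344 CPM in Ctrl-PBS. The part of these marker differences in the results was not tested. In sorted bulk RNA, fewer cells of a type and less RNA per cell cannot be told apart.

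The module as a whole was highest in control mice after LPS. The geometric mean over the 39 members was 25.4 ± 6.29 CPM in GW-CBD-LPS (SD, n = 4), against 15.7 ± 0.468 CPM in GW-CBD-PBS (n = 3). It was 20.5 ± 4.17 CPM in GW-LPS (n = 3), against 18.7 ± 3.49 CPM in GW-PBS (n = 4), and 36.6 ± 11.0 CPM in Ctrl-LPS (n = 4), against 17.9 ± 1.83 CPM in Ctrl-PBS (n = 4). Single libraries differed across most members at once. Ctrl-LPS replicate 1 was the highest of its group for 32 of 39 members and Ctrl-LPS replicate 2 the lowest for 28. GW-LPS replicate 2 was the highest of its group for 33 members, GW-CBD-LPS replicate 2 for 28 and Ctrl-PBS replicate 1 for 27. Per kilobase of exon, the highest mean levels in Ctrl-LPS were those of Bst2 (299 CPM per kb), Ifi27l2a (279) and Slfn2 (256), and the lowest was that of Ifi44 (0.175).

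**Figure D1:**
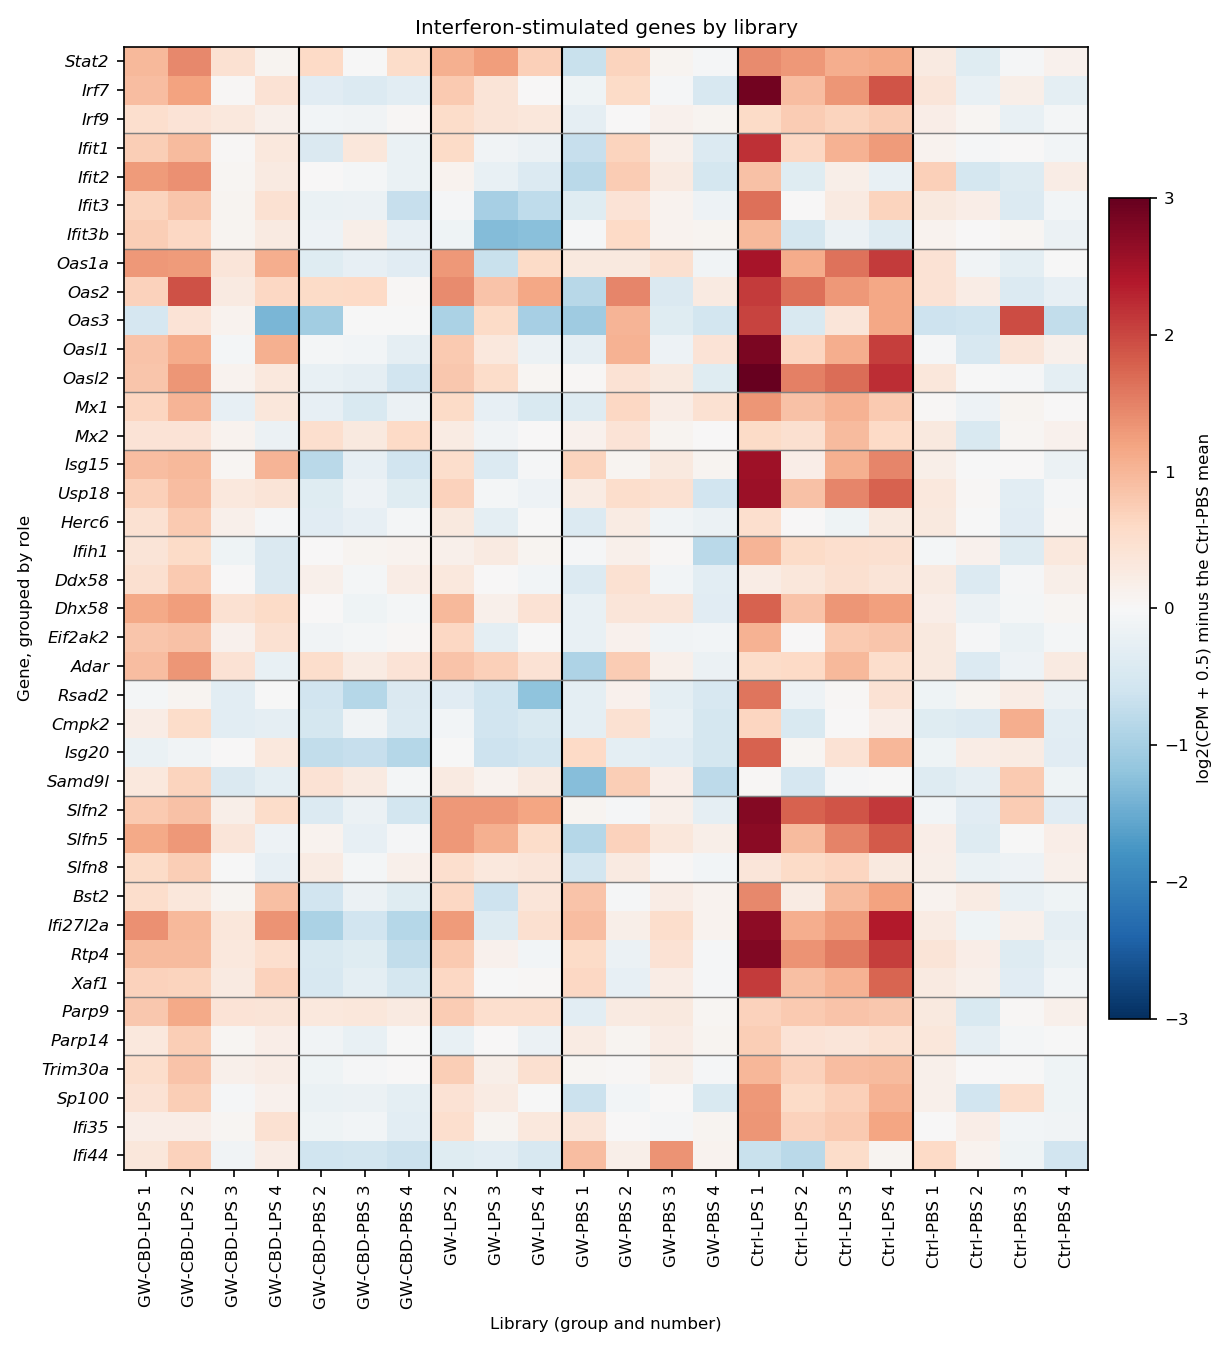
Level of the 39 genes (down the page, by role) in the 22 libraries (across, GW-CBD-LPS at the left and Ctrl-PBS at the right), as log2(CPM + 0.5) minus the mean of the gene in Ctrl-PBS. The geometric mean over the 39 genes was 25.5 to 51.6 CPM in the Ctrl-LPS libraries. It was 19.3 to 32.9 CPM in GW-CBD-LPS, which overlaps, and 17.9 to 25.3 CPM in GW-LPS. Ctrl-LPS replicate 1 is the highest of its group for 32 of 39 genes.

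In CBD-treated GW mice, LPS left 37 of 39 members with a positive log2 fold change, but 1 passed the test (GW-CBD-LPS against GW-CBD-PBS). That gene was Ifi27l2a, which rose; over all genes tested 0.417% passed and 0.393% passed in the higher direction (edgeR quasi-likelihood test, adjusted p under 0.05). For 25 members every GW-CBD-LPS library lay above every GW-CBD-PBS library, and for none below, against 8.37% of all genes tested above. At an unadjusted p under 0.05 there were 26 members, all higher, against 7.52% of all genes higher. The median log2 fold change was 0.65, against 0.00 over all genes. The count was 5 without the 3 libraries with raised neutrophil markers (0.953% of all genes in that fit), 8 without GW-CBD-LPS replicate 3 (1.58% of all genes), 9 with DESeq2 (2.08% of all genes) and 31 with limma voom (22.8% of all genes). The Ifi27l2a call was lost without any 1 of the other 6 libraries of these groups and with the replicate number as a block.

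In GW mice without CBD, 3 members rose with LPS (GW-LPS against GW-PBS) and none fell. They were Stat2, Irf9 and Slfn2, and over all genes tested 9.53% passed and 4.45% passed in the higher direction. The median log2 fold change of the members was 0.13, against -0.04 over all genes, and 25 members had a positive value. For 5 members (Stat2, Irf9, Slfn2, Slfn8 and Parp9) every GW-LPS library lay above every GW-PBS library, and for 3 (Ifit3b, Parp14 and Ifi44) below, against 9.22% of all genes above and 10.4% below. The median was -0.09 without GW-LPS replicate 2. Called members numbered 1 without GW-LPS replicate 4 or GW-PBS replicate 1, 6 without GW-PBS replicate 2 (5 higher, 1 lower), 5 with DESeq2 (3 higher, 2 lower; 14.1% of all genes in that fit) and 8 with limma voom (6 higher, 2 lower; 23% of all genes). Without the 3 libraries with raised neutrophil markers 2 were called, Slfn2 higher and Ifit3b lower (6.89% of all genes). The share over all genes moved between fits and is not given for those without 1 library. Their counts alone do not show a change particular to the members.

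In control mice, LPS raised 27 of 39 members and lowered none (Ctrl-LPS against Ctrl-PBS), where 20.4% of all genes tested passed and 10.8% passed in the higher direction. The groups did not overlap for 27 members, all higher in Ctrl-LPS, against 12.2% of all genes higher. The median log2 fold change of the members was 0.89, against -0.02 over all genes. Of the 27 called members 20 were called in all 16 fits tried, from drivers such as Stat2, Irf7 and Irf9 to effectors such as Oasl2, Isg15 and Slfn2. Without the 3 libraries with raised neutrophil markers 20 members were called (14.2% of all genes), and the calls lost were those of Oas2, Mx2, Ifih1, Eif2ak2, Isg20, Bst2 and Parp14.

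**Figure D2:**
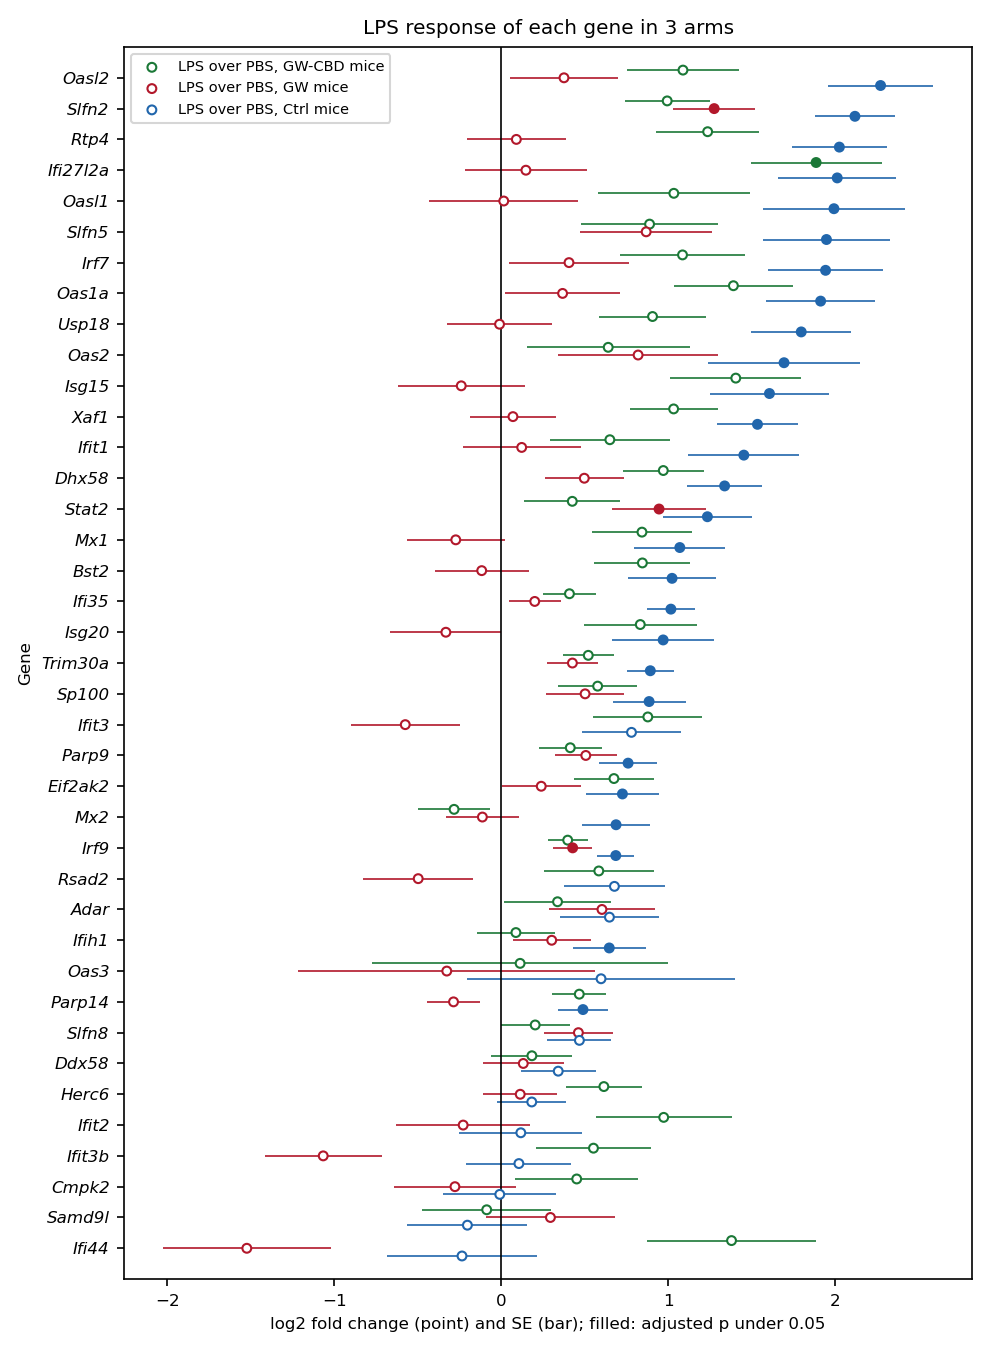
Log2 fold change of LPS over PBS (across, with its SE) for each gene (down) in GW-CBD, GW and control mice; filled points have an edgeR adjusted p under 0.05. Filled points number 1 in GW-CBD mice, 3 in GW mice and 27 in control mice.

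Stat2 is a transcription factor of the interferon-activated complex. Stat2 had 53.2, 73.0, 36.7 and 28.6 CPM in GW-CBD-LPS, against 41.0, 26.7 and 39.2 CPM in GW-CBD-PBS. GW-LPS libraries held 56.3, 64.5 and 43.98 CPM of Stat2, against 16.7, 43.0, 28.2 and 26.2 CPM in GW-PBS. In control mice Stat2 had 72.2, 66.2, 57.5 and 59.6 CPM in Ctrl-LPS, against 32.2, 20.7, 26.1 and 29.6 CPM in Ctrl-PBS. The groups overlapped in CBD-treated mice and did not overlap in the other arms. The log2 fold change with LPS was 0.43 ± 0.29 in GW-CBD mice (adjusted p = 0.634), 0.95 ± 0.28 in GW mice (adjusted p = 0.0386) and 1.24 ± 0.27 in control mice (adjusted p = 0.00241). The rise in GW mice was lost in 8 of 15 fits, among them those without any 1 GW-LPS library, without GW-PBS replicate 1, 3 or 4, and without the 3 libraries.

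Irf7 is the interferon regulatory factor that amplifies interferon-alpha production. Irf7 stood at 59.0, 71.7, 31.5 and 41.6 CPM in GW-CBD-LPS, against 24.3, 22.9 and 24.8 CPM in GW-CBD-PBS. Without CBD, Irf7 stood at 53.5, 40.3 and 31.0 CPM in GW-LPS, against 27.96, 45.9, 29.8 and 21.95 CPM in GW-PBS. For control mice, Irf7 read 231, 58.5, 77.8 and 115 CPM in Ctrl-LPS, against 39.7, 26.1, 34.7 and 24.9 CPM in Ctrl-PBS. All GW-CBD-LPS libraries lay above GW-CBD-PBS and all Ctrl-LPS libraries above Ctrl-PBS, while the GW groups overlapped. Irf7 rose by 1.94 ± 0.35 in control mice (adjusted p = 0.000447). Its log2 fold change was 1.09 ± 0.37 in GW-CBD mice (adjusted p = 0.252) and 0.41 ± 0.36 in GW mice (adjusted p = 0.531). Irf7 was lower in GW-CBD-LPS than in Ctrl-LPS (log2 fold change -1.24 ± 0.34, adjusted p = 0.0183), a call lost without Ctrl-LPS replicate 1, at 231 CPM the highest value, without GW-CBD-LPS replicate 3, without the 3 libraries and with the compared groups alone.

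Irf9 encodes the DNA-binding subunit of the complex that holds STAT2. The Irf9 level was 136, 127, 120.3 and 106 CPM in GW-CBD-LPS, against 90.7, 89.6 and 98.0 CPM in GW-CBD-PBS. GW mice showed Irf9 at 141, 124 and 121 CPM in GW-LPS, against 79.5, 97.2, 105 and 101 CPM in GW-PBS. Ctrl-LPS libraries had Irf9 at 143, 162, 152 and 162.9 CPM, against 109.9, 99.9, 82.6 and 92.5 CPM in Ctrl-PBS. In each arm the LPS libraries lay above the PBS libraries without overlap. Irf9 rose with LPS by 0.43 ± 0.12 in GW mice (adjusted p = 0.0273) and by 0.69 ± 0.11 in control mice (adjusted p = 0.000178), and had a log2 fold change of 0.40 ± 0.12 in GW-CBD mice (adjusted p = 0.189). The GW call was lost in 7 of 15 fits, among them those without GW-PBS replicate 1, without any 1 GW-LPS library and without the 3 libraries. Between LPS groups Irf9 was lower in GW-CBD-LPS than in Ctrl-LPS (-0.34 ± 0.11, adjusted p = 0.0438), a call lost in 12 of 16 fits.

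The IFIT proteins bind viral RNA that lacks a host cap mark and stop its translation. Ifit3 had 64.6, 71.9, 42.8 and 56.1 CPM in GW-CBD-LPS, against 34.96, 36.0 and 25.1 CPM in GW-CBD-PBS. GW-LPS libraries held 39.7, 19.99 and 23.5 CPM of Ifit3, against 31.4, 53.7, 43.9 and 36.2 CPM in GW-PBS. In control mice Ifit3 had 129, 40.7, 48.6 and 65.0 CPM in Ctrl-LPS, against 49.98, 46.4, 30.4 and 38.1 CPM in Ctrl-PBS. GW-CBD-LPS lay above GW-CBD-PBS without overlap, the other arms overlapped, and GW-LPS lay below both other LPS groups. Ifit3 differed between LPS and PBS by 0.88 ± 0.33 in GW-CBD mice (adjusted p = 0.307), -0.57 ± 0.33 in GW mice (adjusted p = 0.291) and 0.78 ± 0.30 in control mice (adjusted p = 0.069). Ifit1 rose in control mice to 23.99 ± 12.4 CPM in Ctrl-LPS, against 8.75 ± 0.536 CPM in Ctrl-PBS (SD, n = 4 each; log2 fold change 1.45 ± 0.33, adjusted p = 0.00361). Ifit2 and Ifit3b passed in no arm. The Ifit3b log2 fold change with LPS was 0.55 ± 0.34 in GW-CBD mice, -1.07 ± 0.35 in GW mice (adjusted p = 0.0593) and 0.11 ± 0.31 in control mice.

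The OAS enzymes sense double-stranded RNA and make the messenger that activates RNase L, an activity that Oasl1 lacks. Oasl2 stood at 48.7, 69.0, 29.3 and 33.9 CPM in GW-CBD-LPS, against 23.2, 22.5 and 18.1 CPM in GW-CBD-PBS. Without CBD, Oasl2 stood at 47.6, 40.2 and 28.04 CPM in GW-LPS, against 27.9, 37.0, 33.1 and 21.002 CPM in GW-PBS. For control mice, Oasl2 read 237, 78.5, 87.2 and 128 CPM in Ctrl-LPS, against 34.3, 26.9, 26.5 and 22.2 CPM in Ctrl-PBS. The LPS and PBS groups overlapped in GW mice and were apart in the other arms. Oasl2 rose with LPS by 2.27 ± 0.32 in control mice (adjusted p = 3.99e-05), the largest rise of any member there, and had log2 fold changes of 1.09 ± 0.34 in GW-CBD mice (adjusted p = 0.2) and 0.38 ± 0.33 in GW mice (adjusted p = 0.52). After LPS every GW-CBD and GW library lay below every control library. Of the 5 OAS genes 4 rose in control mice, with Oas1a at 1.91 ± 0.33, Oasl1 at 1.99 ± 0.42 and Oas2 at 1.69 ± 0.46, the last lost without the 3 libraries. Oas3 did not pass (0.60 ± 0.80), and its highest Ctrl-PBS value was 8.25 CPM in replicate 3, the library with most neutrophil marker RNA, against at most 0.987 CPM in the others.

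The Mx GTPases block viruses early in their life cycle, although the Mx1 gene of common laboratory strains, C57BL/6 among them, is known to be defective. The Mx1 level was 10.5, 13.8, 5.43 and 8.43 CPM in GW-CBD-LPS, against 5.49, 4.67 and 5.79 CPM in GW-CBD-PBS. GW mice showed Mx1 at 10.02, 5.43 and 4.63 CPM in GW-LPS, against 4.89, 10.5, 7.78 and 9.21 CPM in GW-PBS. Ctrl-LPS libraries had Mx1 at 17.1, 12.5, 14.1 and 11.7 CPM, against 6.76, 5.87, 7.04 and 6.68 CPM in Ctrl-PBS. Ctrl-LPS lay above Ctrl-PBS without overlap, and the other arms overlapped. Mx1 rose by 1.07 ± 0.27 in control mice (adjusted p = 0.00795) and differed by 0.84 ± 0.30 in GW-CBD mice and -0.27 ± 0.29 in GW mice, neither past the threshold (adjusted p = 0.271 and 0.618). Mx2 also rose in control mice (0.69 ± 0.20, adjusted p = 0.0202), a call lost in 5 of 16 fits, among them those without Ctrl-LPS replicate 3, without Ctrl-PBS replicate 2 and without the 3 libraries.

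ISG15 is a ubiquitin-like modifier, USP18 removes it from proteins and also dampens the interferon receptor, and HERC6 is its ligase in mice. Isg15 had 16.5, 17.1, 8.82 and 17.4 CPM in GW-CBD-LPS, against 4.54, 6.94 and 5.44 CPM in GW-CBD-PBS. GW-LPS libraries held 12.3, 6.20 and 8.10 CPM of Isg15, against 13.7, 8.87, 10.5 and 8.93 CPM in GW-PBS. In control mice Isg15 had 51.2, 9.69, 17.97 and 23.9 CPM in Ctrl-LPS, against 9.59, 8.31, 8.45 and 7.33 CPM in Ctrl-PBS. GW-CBD-LPS and Ctrl-LPS each lay above their PBS groups, and GW-LPS overlapped GW-PBS. Isg15 rose by 1.61 ± 0.36 in control mice (adjusted p = 0.00287), and its log2 fold change was 1.41 ± 0.39 in GW-CBD mice (adjusted p = 0.145) and -0.24 ± 0.38 in GW mice, with a 95% interval of -1.03 to 0.55.

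Usp18 stood at 42.8, 50.2, 32.5 and 34.5 CPM in GW-CBD-LPS, against 20.2, 23.6 and 20.2 CPM in GW-CBD-PBS. Without CBD, Usp18 stood at 42.5, 25.04 and 23.6 CPM in GW-LPS, against 30.8, 38.03, 36.1 and 17.4 CPM in GW-PBS. For control mice, Usp18 read 157, 48.3, 72.3 and 89.5 CPM in Ctrl-LPS, against 32.7, 26.7, 20.7 and 25.5 CPM in Ctrl-PBS. GW-CBD-LPS and Ctrl-LPS again cleared their PBS groups, while GW-LPS lay within the range of GW-PBS but for 42.5 CPM in replicate 2. Usp18 rose with LPS by 1.80 ± 0.30 in control mice (adjusted p = 0.000228) and was lower in GW-CBD-LPS than in Ctrl-LPS (-1.20 ± 0.29, adjusted p = 0.00965), a call lost without Ctrl-LPS replicate 1 and without the 3 libraries. In GW mice the LPS difference was -0.01 ± 0.31 (95% interval -0.66 to 0.64). Herc6 passed in no arm, at 0.62 ± 0.23 in GW-CBD mice, 0.11 ± 0.22 in GW mice and 0.18 ± 0.21 in control mice.

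**Figure D3:**
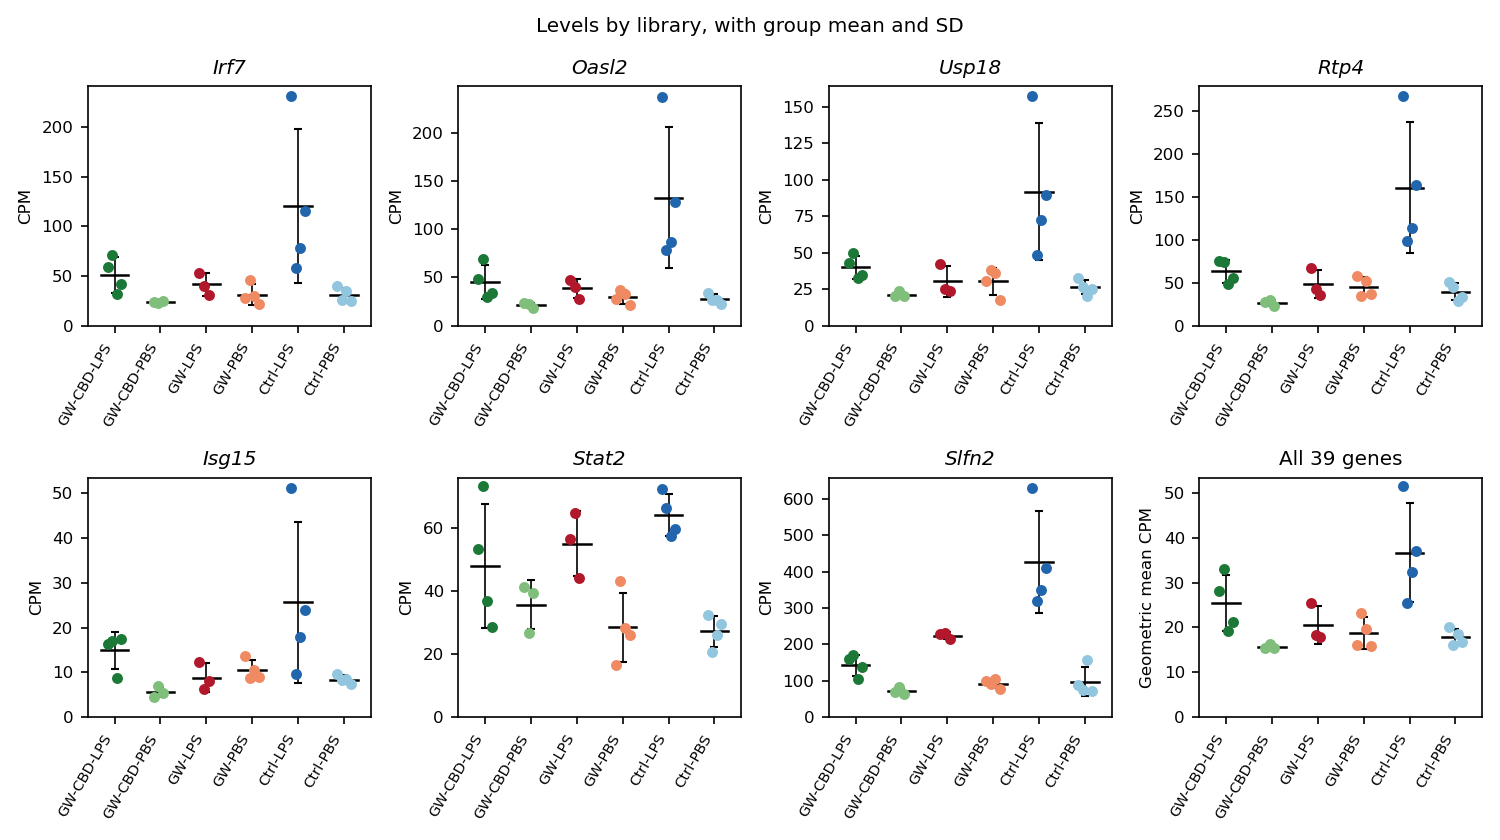
Level in CPM (up) of 7 members, and the geometric mean CPM of all 39, in each library (points), with the mean of each group (horizontal line) and its SD (bar), from GW-CBD-LPS at the left to Ctrl-PBS at the right. Ctrl-LPS replicate 1 gives the highest point for all shown but Stat2, where GW-CBD-LPS replicate 2 does, and Slfn2 in GW-LPS lies above GW-PBS without overlap.

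Among the sensors of viral RNA are MDA5 (Ifih1), RIG-I (Ddx58) and their regulator LGP2 (Dhx58), with the translation-blocking kinase PKR (Eif2ak2) and the RNA-editing enzyme Adar. The Dhx58 level was 66.8, 72.5, 41.7 and 45.0 CPM in GW-CBD-LPS, against 30.1, 27.4 and 28.9 CPM in GW-CBD-PBS. GW mice showed Dhx58 at 59.3, 33.7 and 40.9 CPM in GW-LPS, against 25.6, 38.7, 38.6 and 23.6 CPM in GW-PBS. Ctrl-LPS libraries had Dhx58 at 103, 54.5, 76.6 and 71.5 CPM, against 34.4, 26.4, 28.8 and 31.3 CPM in Ctrl-PBS. All GW-CBD-LPS libraries cleared GW-CBD-PBS and all Ctrl-LPS libraries cleared Ctrl-PBS. Dhx58 rose by 1.34 ± 0.22 in control mice (adjusted p = 0.000248) and had log2 fold changes of 0.97 ± 0.24 in GW-CBD mice (adjusted p = 0.0888) and 0.50 ± 0.24 in GW mice (adjusted p = 0.202). Ifih1 (0.65 ± 0.22) and Eif2ak2 (0.73 ± 0.22) also rose in control mice, each lost in 8 of 16 fits, among them the one without Ctrl-LPS replicate 1. Ddx58 did not pass (0.34 ± 0.22).

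Adar had 81.0, 106, 57.0 and 36.3 CPM in GW-CBD-LPS, against 60.8, 49.7 and 56.1 CPM in GW-CBD-PBS. GW-LPS libraries held 76.6, 69.4 and 56.7 CPM of Adar, against 22.1, 71.7, 46.6 and 37.6 CPM in GW-PBS. In control mice Adar had 62.2, 63.8, 83.0 and 60.7 CPM in Ctrl-LPS, against 51.4, 31.7, 37.9 and 51.1 CPM in Ctrl-PBS. The Adar groups overlapped in GW-CBD and GW mice and did not overlap in control mice. No Adar comparison passed, with LPS log2 fold changes of 0.34 ± 0.32, 0.60 ± 0.32 and 0.65 ± 0.29 in GW-CBD, GW and control mice.

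Rsad2, Cmpk2, Isg20 and Samd9l act on nucleotides or RNA, since viperin (Rsad2) makes a chain-terminating nucleotide with the mitochondrial kinase Cmpk2, Isg20 is an exonuclease that degrades RNA and Samd9l restrains translation. Isg20 stood at 8.71, 9.46, 10.2 and 12.9 CPM in GW-CBD-LPS, against 5.87, 6.12 and 5.35 CPM in GW-CBD-PBS. Without CBD, Isg20 stood at 10.04, 6.40 and 6.74 CPM in GW-LPS, against 15.8, 8.25, 8.06 and 6.86 CPM in GW-PBS. For control mice, Isg20 read 35.6, 10.6, 14.003 and 20.7 CPM in Ctrl-LPS, against 9.26, 11.9, 12.2 and 7.89 CPM in Ctrl-PBS. GW-CBD-LPS lay above GW-CBD-PBS, and the other arms overlapped. Isg20 rose in control mice (0.97 ± 0.31, adjusted p = 0.029), a call lost in 6 of 16 fits. It was lower in GW-CBD-LPS than in Ctrl-LPS (-0.97 ± 0.31, adjusted p = 0.0384), a call lost in 8 of 16 fits. Both calls were lost without Ctrl-LPS replicate 1, without Ctrl-LPS replicate 4, with the compared groups alone and without the 3 libraries.

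The Samd9l level was 14.99, 19.1, 8.71 and 9.67 CPM in GW-CBD-LPS, against 16.2, 14.3 and 11.3 CPM in GW-CBD-PBS. GW mice showed Samd9l at 14.4, 12.8 and 14.3 CPM in GW-LPS, against 4.56, 20.2, 13.7 and 6.64 CPM in GW-PBS. Ctrl-LPS libraries had Samd9l at 12.2, 8.16, 11.6 and 11.8 CPM, against 8.92, 9.76, 20.8 and 10.8 CPM in Ctrl-PBS. The Samd9l groups overlapped in every arm, and GW-LPS lay above Ctrl-LPS. It was the 1 member with a positive interaction of GW exposure and LPS (0.50 ± 0.53, adjusted p = 0.69). Rsad2 differed with LPS by 0.58 ± 0.33 in GW-CBD mice, -0.50 ± 0.33 in GW mice and 0.68 ± 0.30 in control mice, with no call. Cmpk2 gave -0.01 ± 0.34 in control mice, where Ctrl-PBS replicate 3 held 18.8 CPM, against at most 6.79 CPM in the other Ctrl-PBS libraries.

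Schlafen proteins control cell quiescence and cut or shield transfer RNA. Slfn2 had 160.2, 171, 105 and 137 CPM in GW-CBD-LPS, against 69.5, 82.7 and 63.5 CPM in GW-CBD-PBS. GW-LPS libraries held 228, 231 and 214 CPM of Slfn2, against 99.1, 90.8, 104 and 77.0 CPM in GW-PBS. In control mice Slfn2 had 629.6, 318, 348 and 409 CPM in Ctrl-LPS, against 87.6, 73.9, 158 and 73.5 CPM in Ctrl-PBS. The LPS libraries lay above the PBS libraries in every arm without overlap, and all GW-CBD-LPS libraries lay below all GW-LPS libraries, which lay below all Ctrl-LPS libraries. Slfn2 rose by 1.28 ± 0.25 in GW mice (adjusted p = 0.00255) and by 2.12 ± 0.24 in control mice (adjusted p = 4.63e-06), calls that held in all fits. In GW-CBD mice its log2 fold change was 0.99 ± 0.25 (adjusted p = 0.0944). It had the smallest adjusted p of the members in GW-CBD-LPS against Ctrl-LPS, where it was lower (-1.57 ± 0.23, adjusted p = 0.000193), also in all fits.

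Slfn5 stood at 14.5, 16.3, 8.34 and 5.598 CPM in GW-CBD-LPS, against 6.83, 5.22 and 6.10 CPM in GW-CBD-PBS. Without CBD, Slfn5 stood at 16.3, 13.9 and 9.55 CPM in GW-LPS, against 3.24, 10.5, 8.09 and 7.20 CPM in GW-PBS. For control mice, Slfn5 read 43.9, 12.6, 18.7 and 23.9 CPM in Ctrl-LPS, against 7.37, 4.70, 6.26 and 7.33 CPM in Ctrl-PBS. Ctrl-LPS lay above Ctrl-PBS, and the groups overlapped in GW-CBD and GW mice. Slfn5 rose in control mice by 1.95 ± 0.38 (adjusted p = 0.00105) and was lower in GW-CBD-LPS than in Ctrl-LPS (-1.14 ± 0.37, adjusted p = 0.0441), the last lost in 10 of 16 fits. Slfn8 passed in no arm, with 0.46 ± 0.21 in GW mice and 0.47 ± 0.19 in control mice, although neither arm overlapped.

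Bst2 (tetherin) holds budding virus at the cell surface, Ifi27l2a is a small protein of intracellular membranes, Rtp4 is a chaperone of membrane receptors and Xaf1 binds the apoptosis inhibitor XIAP. The Bst2 level was 189.7, 166, 138 and 245 CPM in GW-CBD-LPS, against 88.3, 117 and 103 CPM in GW-CBD-PBS. GW mice showed Bst2 at 203, 85.6 and 169.9 CPM in GW-LPS, against 238, 128, 154 and 142 CPM in GW-PBS. Ctrl-LPS libraries had Bst2 at 360.1, 157, 255 and 306 CPM, against 141, 155, 113 and 121 CPM in Ctrl-PBS. GW-CBD-LPS lay above GW-CBD-PBS and Ctrl-LPS above Ctrl-PBS, by a narrow margin in control mice, and the GW groups overlapped. Bst2 rose by 1.02 ± 0.26 in control mice (adjusted p = 0.00866), a call lost without the 3 libraries, and gave 0.85 ± 0.29 in GW-CBD mice and -0.12 ± 0.28 in GW mice.

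Ifi27l2a had 83.1, 63.0, 40.2 and 81.6 CPM in GW-CBD-LPS, against 16.1, 20.999 and 17.3 CPM in GW-CBD-PBS. GW-LPS libraries held 77.0, 24.2 and 44.2 CPM of Ifi27l2a, against 60.04, 35.6, 45.5 and 33.8 CPM in GW-PBS. In control mice Ifi27l2a had 205, 67.9, 77.1 and 166 CPM in Ctrl-LPS, against 37.4, 28.9, 35.5 and 26.0 CPM in Ctrl-PBS. The lowest PBS values of any group were those of GW-CBD-PBS, and GW-LPS reached beyond GW-PBS at both ends. Ifi27l2a rose with LPS by 1.89 ± 0.39 in GW-CBD mice (adjusted p = 0.0438) and by 2.01 ± 0.35 in control mice (adjusted p = 0.000395). In GW mice the difference was 0.15 ± 0.37 (adjusted p = 0.847).

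Rtp4 stood at 75.5, 74.4, 48.5 and 55.3 CPM in GW-CBD-LPS, against 28.2, 29.7 and 22.9 CPM in GW-CBD-PBS. Without CBD, Rtp4 stood at 66.7, 42.2 and 36.2 CPM in GW-LPS, against 57.6, 34.3, 52.3 and 37.4 CPM in GW-PBS. For control mice, Rtp4 read 267, 98.4, 114 and 164 CPM in Ctrl-LPS, against 50.6, 44.6, 29.2 and 33.5 CPM in Ctrl-PBS. Both GW-CBD-LPS and Ctrl-LPS cleared their PBS groups, and every Ctrl-LPS library lay above every GW-CBD-LPS and GW-LPS library. Rtp4 rose by 2.03 ± 0.28 in control mice (adjusted p = 4.31e-05), with 1.24 ± 0.31 in GW-CBD mice (adjusted p = 0.0836) and 0.09 ± 0.30 in GW mice (95% interval -0.53 to 0.71). It was lower in GW-CBD-LPS than in Ctrl-LPS by a log2 fold change of -1.34 ± 0.28 (adjusted p = 0.00297), in all fits.

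The Xaf1 level was 43.9, 43.2, 32.6 and 44.4 CPM in GW-CBD-LPS, against 19.3, 22.1 and 18.7 CPM in GW-CBD-PBS. GW mice showed Xaf1 at 42.1, 26.99 and 27.8 CPM in GW-LPS, against 41.9, 22.8, 32.0 and 26.4 CPM in GW-PBS. Ctrl-LPS libraries had Xaf1 at 118.6, 51.3, 56.3 and 92.7 CPM, against 33.0, 29.99, 21.4 and 25.6 CPM in Ctrl-PBS. The pattern of overlap was that of Rtp4, with GW-LPS inside the range set by GW-PBS but for 42.1 CPM in replicate 2. Xaf1 rose by 1.54 ± 0.24 in control mice (adjusted p = 0.000141) and gave 1.03 ± 0.26 in GW-CBD mice (adjusted p = 0.0944) and 0.07 ± 0.26 in GW mice (adjusted p = 0.901). It was lower in GW-CBD-LPS than in Ctrl-LPS (-0.96 ± 0.24, adjusted p = 0.0109), except without Ctrl-LPS replicate 1.

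Parp9 and Parp14 belong to the ADP-ribosyltransferases. Parp9 had 70.8, 89.3, 53.8 and 53.1 CPM in GW-CBD-LPS, against 50.4, 50.9 and 49.0 CPM in GW-CBD-PBS. GW-LPS libraries held 69.2, 57.9 and 57.6 CPM of Parp9, against 32.3, 48.9, 49.6 and 42.5 CPM in GW-PBS. In control mice Parp9 had 65.6, 69.5, 73.5 and 70.7 CPM in Ctrl-LPS, against 49.5, 29.1, 41.2 and 45.1 CPM in Ctrl-PBS. LPS libraries lay above PBS libraries in all 3 arms. Parp9 rose in control mice (0.76 ± 0.17, adjusted p = 0.00356), with 0.41 ± 0.19 in GW-CBD mice and 0.51 ± 0.18 in GW mice (adjusted p = 0.0886).

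Parp14 stood at 30.1, 40.1, 25.1 and 27.5 CPM in GW-CBD-LPS, against 22.3, 20.5 and 23.8 CPM in GW-CBD-PBS. Without CBD, Parp14 stood at 20.5, 24.2 and 21.4 CPM in GW-LPS, against 28.5, 25.5, 28.2 and 25.3 CPM in GW-PBS. For control mice, Parp14 read 40.6, 31.9, 31.3 and 32.9 CPM in Ctrl-LPS, against 30.7, 19.7, 23.2 and 23.7 CPM in Ctrl-PBS. Parp14 was ordered differently, as GW-LPS lay below GW-PBS, below GW-CBD-LPS and below Ctrl-LPS, each without overlap. Its LPS log2 fold changes were 0.47 ± 0.16 in GW-CBD mice (adjusted p = 0.255), -0.28 ± 0.16 in GW mice (adjusted p = 0.288) and 0.49 ± 0.15 in control mice (adjusted p = 0.0229), the last lost in 7 of 16 fits.

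Trim30a restrains Toll-like receptor signalling in mice, Sp100 is a nuclear body protein, and Ifi35 and Ifi44 are further interferon-induced proteins. The Trim30a level was 94.6, 118.8, 72.5 and 76.5 CPM in GW-CBD-LPS, against 59.6, 64.0 and 65.7 CPM in GW-CBD-PBS. GW mice showed Trim30a at 110.0, 73.8 and 91.5 CPM in GW-LPS, against 68.2, 67.0, 74.1 and 63.8 CPM in GW-PBS. Ctrl-LPS libraries had Trim30a at 131, 106, 125 and 127 CPM, against 72.9, 65.7, 64.7 and 59.5 CPM in Ctrl-PBS. GW-CBD-LPS cleared GW-CBD-PBS and Ctrl-LPS cleared Ctrl-PBS, while GW-LPS replicate 3 overlapped GW-PBS. Trim30a rose by 0.89 ± 0.14 in control mice (adjusted p = 0.000153), with 0.52 ± 0.15 in GW-CBD mice and 0.43 ± 0.15 in GW mice (adjusted p = 0.0806). It was lower in GW-CBD-LPS than in Ctrl-LPS (-0.43 ± 0.14, adjusted p = 0.0466), a call lost in 10 of 16 fits.

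Ifi35 had 68.7, 68.5, 61.4 and 81.6 CPM in GW-CBD-LPS, against 54.7, 55.8 and 47.7 CPM in GW-CBD-PBS. GW-LPS libraries held 85.0, 63.3 and 73.8 CPM of Ifi35, against 76.4, 60.2, 58.2 and 62.8 CPM in GW-PBS. In control mice Ifi35 had 149, 95.7, 103 and 135 CPM in Ctrl-LPS, against 60.1, 67.9, 55.6 and 54.8 CPM in Ctrl-PBS. All Ctrl-LPS libraries lay above all libraries of the other 5 groups. Ifi35 rose by 1.02 ± 0.14 in control mice (adjusted p = 4.94e-05), with 0.41 ± 0.16 in GW-CBD mice and 0.20 ± 0.15 in GW mice, and was lower in GW-CBD-LPS than in Ctrl-LPS in all fits (-0.78 ± 0.14, adjusted p = 0.00113). Sp100 rose in control mice (0.89 ± 0.22). Ifi44 did not pass, at 1.38 ± 0.51 in GW-CBD mice, -1.52 ± 0.50 in GW mice (adjusted p = 0.0605) and -0.23 ± 0.45 in control mice, and its levels were low, from 0.472 to 3.80 CPM over all libraries.

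After LPS, exposed mice without CBD had lower values than control mice for 37 of 39 members (GW-LPS against Ctrl-LPS), yet none passed the edgeR test, as 0% of all genes tested did. The median log2 fold change was -0.78, against -0.01 over all genes, and the smallest adjusted p was 0.106. At an unadjusted p under 0.05 there were 26 members, all lower, against 7.45% of all genes lower, and for 17 members every GW-LPS library lay below every Ctrl-LPS library, against 6.25% of all genes. Samd9l was the 1 member above without overlap, against 6.29% of all genes. The lowest values were those of Oasl2 (-1.78 ± 0.34), Rtp4 (-1.73 ± 0.31, 95% interval -2.38 to -1.08) and Oasl1 (-1.62 ± 0.46), and the drivers gave -0.22 ± 0.29 for Stat2, -1.53 ± 0.38 for Irf7 and -0.27 ± 0.12 for Irf9. DESeq2 called 17 members lower (0.888% of all genes in that fit) and limma voom 18 (1.96% of all genes), and edgeR called 9 without Ctrl-LPS replicate 2 (0.182% of all genes) and 6 without Ctrl-LPS replicate 3 (0.454% of all genes), but none without the 3 libraries. The median was -0.60 without Ctrl-LPS replicate 1, the library that was highest for 32 members and held 3114 CPM of neutrophil markers, whose part in the result was not tested.

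The interaction of exposure and LPS, the LPS difference in GW mice minus that in control mice, was negative for 38 of 39 members with a median of -0.87, against 0.01 over all genes. None passed (smallest adjusted p 0.211, 0% of all genes passing), and 22 had an unadjusted p under 0.05, all negative, against 8.28% of all genes negative. DESeq2 called 4 members (0.356% of all genes in that fit) and limma voom 6 (0.671% of all genes), all negative. Isg15 had -1.85 ± 0.52, Rtp4 -1.93 ± 0.41, Oasl2 -1.90 ± 0.45 and Usp18 -1.81 ± 0.43. The smallest in size were Slfn8 (-0.01 ± 0.28), Adar (-0.04 ± 0.43) and Herc6 (-0.07 ± 0.30). This difference, the LPS responses and the comparison after LPS share the Ctrl-LPS and GW-LPS libraries, so they are not separate evidence. In simulated counts the test recovered 33% of 2-fold and 90% of 4-fold interactions of exposure and LPS (16152 genes), and 77% of 2-fold and 96% of 4-fold LPS changes in control mice (16120 genes). The simulation changed 100 genes per fold size, all of higher mean CPM, with no other difference between groups. It therefore does not cover low members such as Ifi44 and Oas3.

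CBD-treated GW mice after LPS had 11 members lower than control mice after LPS and none higher (GW-CBD-LPS against Ctrl-LPS), where 14.1% of all genes tested passed and 7.11% were lower. They were Irf7, Irf9, Oasl2, Usp18, Isg20, Slfn2, Slfn5, Rtp4, Xaf1, Trim30a and Ifi35. The median over the 39 members was -0.54, against 0.00 over all genes, and 33 were negative. Oasl2, Slfn2, Rtp4 and Ifi35 were called in all 16 fits. The count was 4 without Ctrl-LPS replicate 1, 17 without Ctrl-LPS replicate 2, 6 without GW-CBD-LPS replicate 3 and 7 without Ctrl-LPS replicate 4. For these fits the share over all genes is not given, so the counts alone do not show a change particular to the members. DESeq2 called 15 members, all lower (19.1% of all genes in that fit), and limma voom 12, of which 10 were lower and 2, Ifit2 and Ifit3b, higher (28.6% of all genes). Without the 3 libraries with raised neutrophil markers 7 were called, 6 lower and 1, Ifit3b, higher (9.96% of all genes), and the calls lost were those of Irf7, Usp18, Isg20, Slfn5 and Trim30a.

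**Figure D4:**
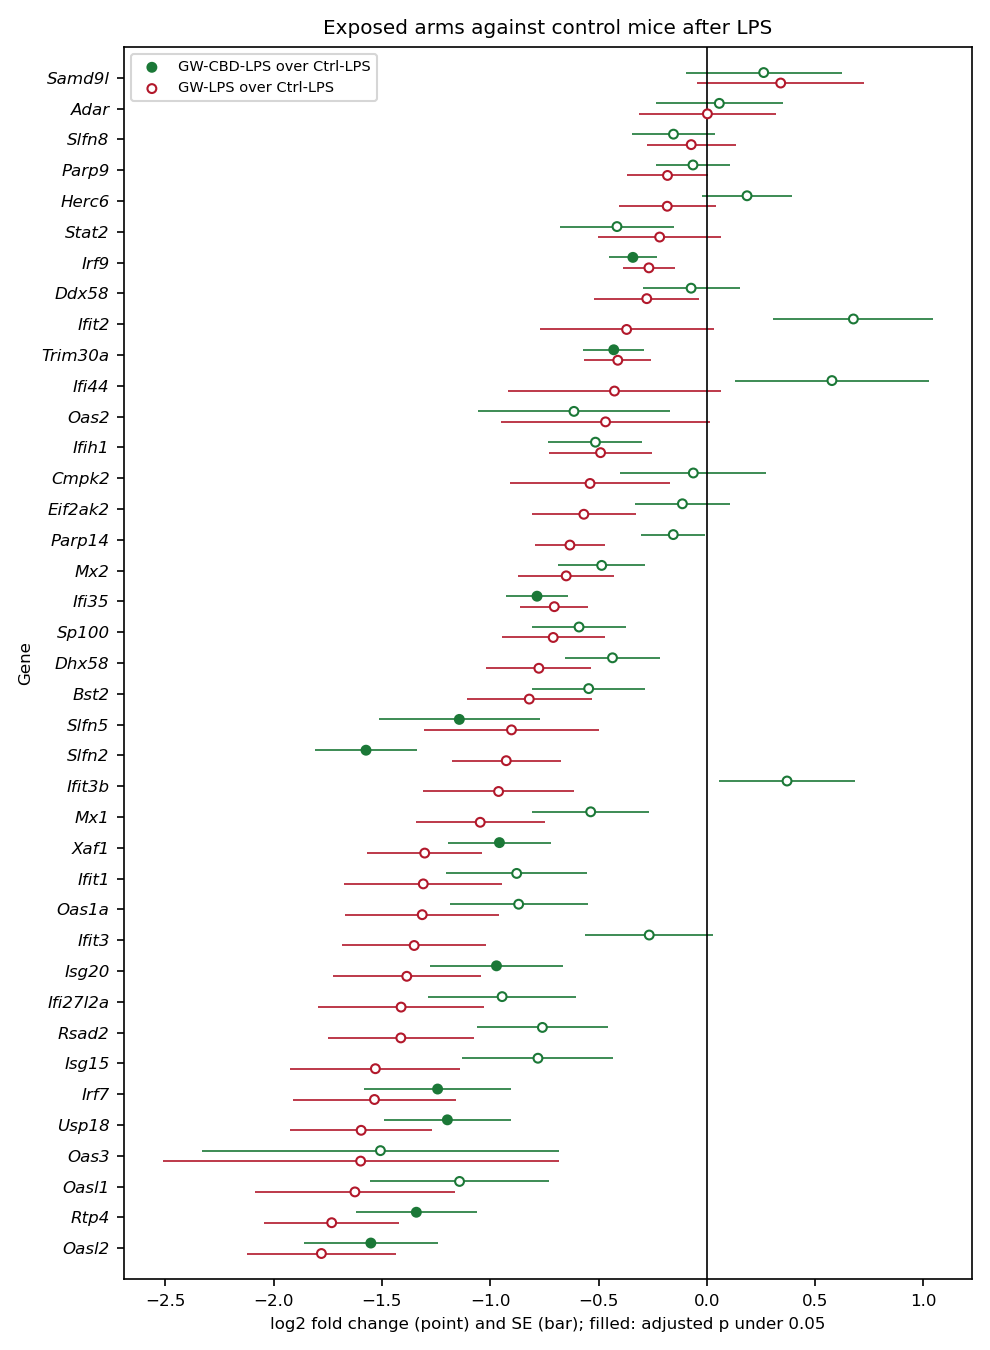
Log2 fold change over Ctrl-LPS (across, with its SE) of GW-CBD-LPS and GW-LPS for each gene (down); filled points have an edgeR adjusted p under 0.05. In GW-CBD-LPS 11 genes are filled, all below 0, and in GW-LPS none, although 37 of its 39 points lie below 0; both share the Ctrl-LPS libraries.

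Within GW mice, CBD was compared after LPS (GW-CBD-LPS against GW-LPS). No member passed, against 2.31% of all genes tested, and the smallest adjusted p was 0.0502, that of Ifit3b. Of the 39 members 29 had a positive log2 fold change with a median of 0.34, against 0.01 over all genes, and 5 had an unadjusted p under 0.05, 4 higher and 1 lower, against 14.4% of all genes in either direction. These were Ifit2 (1.05 ± 0.41), Ifit3 (1.08 ± 0.33, adjusted p = 0.0906), Ifit3b (1.33 ± 0.35), Parp14 (0.48 ± 0.16) and, lower, Slfn2 (-0.65 ± 0.25, adjusted p = 0.195). Ifit3b had 14.1, 12.9, 8.79 and 10.1 CPM in GW-CBD-LPS, against 7.46, 3.02 and 3.18 CPM in GW-LPS. The groups did not overlap for Ifit3, Ifit3b, Rsad2, Parp14 and Ifi44 above and for Slfn2 below, against 6.51% of all genes above and 6.33% below. The count of called members was 3 with DESeq2 (5.44% of all genes in that fit), 12 with limma voom (11 higher, 1 lower; 21.2% of all genes), 2 without GW-LPS replicate 2 (2.57% of all genes), 3 without the 3 libraries (2 higher, 1 lower; 4.13% of all genes) and 1, Ifit3b, with RLE size factors. The DESeq2 count is near the share over all genes.

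The interaction of CBD and LPS, the LPS difference with CBD minus that without it, was positive for 29 members with a median of 0.53, against 0.05 over all genes. No member passed (smallest adjusted p 0.0913, that of Ifi44), against 0.0181% of all genes. At an unadjusted p under 0.05 there were 13 members, all positive, against 9.64% of all genes positive. Ifi44 gave 2.90 ± 0.71, Ifi27l2a 1.74 ± 0.53, Isg15 1.64 ± 0.54 and Ifit3 1.45 ± 0.46, while Stat2 gave -0.52 ± 0.40 and Irf9 -0.03 ± 0.17. DESeq2 called 4 members (2.3% of all genes in that fit) and limma voom 14 (13.8% of all genes), all positive. The GW-LPS and GW-PBS libraries enter this interaction and that of exposure and LPS with opposite signs. The positive values here and the negative values there are therefore not separate evidence.

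Without LPS, in GW-PBS against Ctrl-PBS no member passed, as 0% of all genes tested did, and none had an unadjusted p under 0.05 (3.75% of all genes did). The median was 0.07, against 0.02 over all genes, and it ran from -0.05 to 0.14 over the fits. Isg15 was 10.5 ± 2.24 CPM in GW-PBS and 8.42 ± 0.929 CPM in Ctrl-PBS (SD, n = 4 each), with a log2 fold change of 0.32 ± 0.35 and a 95% interval of -0.41 to 1.04.

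With CBD and PBS, 28 of 39 members had a negative log2 fold change (GW-CBD-PBS against GW-PBS) with a median of -0.28, against -0.03 over all genes. None passed (smallest adjusted p 0.524, 0% of all genes), 7 had an unadjusted p under 0.05, all lower, against 7.08% of all genes lower, and limma voom called 2 lower (1.31% of all genes in that fit). For 10 members every GW-CBD-PBS library lay below every GW-PBS library, against 5% of all genes. Ifi27l2a gave -1.27 ± 0.38, Isg15 -0.89 ± 0.39 and Ifi44 -1.90 ± 0.51. GW-PBS replicate 1, which held 2056 CPM of neutrophil markers, was the highest of its group for 8 members and the lowest for 19. Isg15, Isg20, Bst2, Ifi27l2a, Rtp4 and Xaf1 were among the 8. The part of the neutrophil markers in the values was not tested. Against Ctrl-PBS, GW-CBD-PBS had no called member (0% of all genes), 3 with an unadjusted p under 0.05 (5.58% of all genes) and a median of -0.18, against -0.03 over all genes.

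Genes that act above or beside the module were read from lists of the same pathway. Of 21 interferon ligand genes 1, Ifnb1, was tested, with 144 counts in all over 17 libraries, and 17 ligand genes had no count in any library. Ifnb1 averaged 0.207 ± 0.103 CPM in GW-CBD-LPS, against 0.0329 ± 0.0383 CPM in GW-CBD-PBS, 0.336 ± 0.383 CPM in GW-LPS, against 0.422 ± 0.3004 CPM in GW-PBS, and 0.0600 ± 0.0449 CPM in Ctrl-LPS, against 0.0656 ± 0.113 CPM in Ctrl-PBS. The highest mean was that of GW-PBS, and Ifnb1 passed in no comparison. Of 8 receptor and kinase genes 1 passed in an LPS arm, Jak1 in GW mice (0.76 ± 0.21, adjusted p = 0.025), a call lost in 7 of 15 fits. Between LPS groups, Ifngr1 was lower in GW-CBD-LPS than in Ctrl-LPS (-0.43 ± 0.14), a call lost in 13 of 16 fits.

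Of 17 genes that induce interferon, 3 rose with LPS in GW mice, where 4.45% of all genes rose, and 4 rose and 2 fell in control mice, where 20.4% of all genes passed and 10.8% rose. Myd88, the adaptor of most Toll-like receptors, rose by 0.70 ± 0.09 in GW mice, where Mavs and Tlr7 also rose, and by 0.98 ± 0.09 in control mice, where Irf3, Mb21d1 and Mavs also rose and Irf5 and Irf8 fell. The Myd88 calls in these arms and that of Irf5 held in all fits, and those of Mavs and Tlr7 in GW mice and of Irf3, Mb21d1, Mavs and Irf8 in control mice were each lost in 3 to 10 fits. After LPS, Myd88 was lower in GW-CBD-LPS (128 ± 3.85 CPM, n = 4) than in GW-LPS (208 ± 17.97 CPM, n = 3; log2 fold change -0.70 ± 0.09, adjusted p = 0.00106) and than in Ctrl-LPS (259 ± 17.4 CPM, n = 4; -1.02 ± 0.09, adjusted p = 1.95e-06). Irf3 (-0.31 ± 0.10) and Ikbke (-3.99 ± 1.11) were also lower and Irf8 (0.39 ± 0.10) higher in GW-CBD-LPS than in Ctrl-LPS. The Irf3 call was lost in 11 of 16 fits, and the Ikbke call without Ctrl-LPS replicate 1 or GW-CBD-LPS replicate 1.

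Of 12 negative regulators of interferon signalling, Socs3, an inhibitor of JAK kinases, passed in 2 LPS arms. It rose to 1334 ± 367 CPM in GW-LPS, against 328 ± 132 CPM in GW-PBS (2.02 ± 0.30), and to 1483 ± 270.2 CPM in Ctrl-LPS, against 224 ± 42.7 CPM in Ctrl-PBS (2.73 ± 0.29). With CBD, Socs3 was 592 ± 234 CPM in GW-CBD-LPS, against 338 ± 104 CPM in GW-CBD-PBS (0.81 ± 0.30, adjusted p = 0.305). After LPS it was lower with CBD than without it (-1.17 ± 0.29, adjusted p = 0.0365), a call lost in 6 of 15 fits. Socs3 was also called lower in GW-CBD-LPS than in Ctrl-LPS, in all 16 fits. Trim24, a ubiquitin ligase, was higher in GW-CBD-LPS than in Ctrl-LPS (0.67 ± 0.21), a call lost in 7 of 16 fits.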

How the data were processed

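Polyadenylated RNA of sorted microglia had been sequenced in 22 libraries. The deposited values were whole-number counts of reads per gene, aligned to GRCm38 (mm10) per the submitters' processing notes. Which aligner, counter, strand setting and annotation they used is not given in the sources used here. Reads of overlapping and near-identical genes may therefore be shared. Groups were taken from the sample labels. Members were matched by symbol and identifier, and coordinates came from GENCODE M21. The members, role lists and pathway lists were chosen with earlier results of these data known.

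All 22 libraries entered 1 fit of edgeR 4.0.16 (R 4.3.3; TMM, filterByExpr, quasi-likelihood F test, two-sided) with 6 group means and a common biological coefficient of variation of 0.35. P-values were adjusted by Benjamini-Hochberg over 16554 genes, and an adjusted p under 0.05 counted as called. Marker sums use library totals. Library totals of 28676930 to 40458326 counts make counting error small for members above 1 CPM, and the spread between libraries sets the precision.

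The fit was repeated with DESeq2 1.42.0, with limma 3.58.1 (voom with quality weights), with RLE size factors, with low counts kept, with a block for the replicate number, on the compared groups alone and with single libraries left out. The fit without the 3 libraries with raised neutrophil markers was chosen after seeing the data. The edgeR fits were tested on simulated counts. Near-identical stretches were sought with blastn 2.17.0, and promoters came from RefSeq.

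All members are named, by role. Values in every library are printed, per role, for the member with the highest mean CPM and the one with the smallest unadjusted p in the interaction of exposure and LPS, for the drivers and for members called outside the LPS comparisons; Isg15 and Ifi27l2a were added after their values were seen. Of the pathway genes those called are named. A gene of the pathway lists is not reported here.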

Additional observations from a re-analysis of the deposited data

Results flagged for a closer look

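Among the 39 members in the groups of 4 libraries, 12 of 156 sets of values held 1 library far from the other 3, by a gap over the range above Dixon's critical value at the 95% level. Chance alone gives about 1 in 20. In Ctrl-LPS replicate 1, where neutrophil markers summed to 3114 CPM, Ifit3b was 16.7 CPM (others 5.55 to 7.21) and Ifih1 38.0 CPM (others 26.0 to 27.8). In Ctrl-PBS replicate 3, where they summed to 28207 CPM, Oas3 was 8.25 CPM (others 0.839 to 0.987), Cmpk2 18.8 CPM (others 6.26 to 6.79), Samd9l 20.8 CPM (others 8.92 to 10.8) and Slfn2 157.5 CPM (others 73.5 to 87.6). In GW-PBS replicate 1, with 2056 CPM of these markers, Isg20 was 15.8 CPM (others 6.86 to 8.25). The part of these markers in the values was not tested. Adar was 83.0 CPM in Ctrl-LPS replicate 3 (others 60.7 to 63.8), and Samd9l was 8.16 CPM in Ctrl-LPS replicate 2 (others 11.6 to 12.2). Oas2 was 13.9 CPM in GW-CBD-LPS replicate 2 (others 4.13 to 5.65). In GW-CBD-LPS replicate 3, Isg15 was 8.82 CPM (others 16.5 to 17.4) and Xaf1 32.6 CPM (others 43.2 to 44.4).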

How the results depend on the processing

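Counts of called members moved with the tool more than their direction did, and no result changed sign among those called. The share of all genes called also moved between fits, so a moved count is not by itself a change particular to the members. For LPS in GW-CBD mice (1 called) the count was 2 without the filter on low counts, 9 with DESeq2, 31 with limma voom, 5 with the compared groups alone and 5 when the 3 libraries raised in neutrophil markers were left out, an alternative chosen after seeing the data. For LPS in GW mice (3) it was 5 with DESeq2, 8 with limma voom and 1 with the compared groups alone. For GW against Ctrl after LPS (0) it was 2 without the filter, 17 with DESeq2 and 18 with limma voom, all lower. For CBD after PBS (0) limma voom called 2, and for CBD after LPS (0) the count was 1 with RLE size factors, 1 without the filter, 3 with DESeq2, 12 with limma voom and 3 without the 3 libraries. For the interactions (0 each), DESeq2 called 4 and limma voom 6 for exposure and LPS, and 4 and 14 for CBD and LPS. For GW-CBD against Ctrl after LPS (11) it was 6 with the compared groups alone and 7 without the 3 libraries. Leaving out 1 library gave 0 to 8 for LPS in GW-CBD mice, 1 to 6 for LPS in GW mice, 23 to 29 for LPS in control mice, 0 to 9 for GW against Ctrl after LPS, 0 to 2 for CBD after LPS, 0 to 0 for the interaction of exposure and LPS, 0 to 1 for that of CBD and LPS, 4 to 17 for GW-CBD against Ctrl after LPS, and 0 to 0 for GW against Ctrl, CBD and GW-CBD against Ctrl after PBS. Deviations of libraries with the same replicate number had correlations of -0.285 to 0.145. Libraries with different numbers were not compared in this way, so the check cannot settle whether the numbers pair the libraries. With the number as a replicate block 0 members were called for LPS in GW-CBD mice, 3 in GW mice, 27 in control mice and 8 for GW-CBD against Ctrl after LPS, and 0 in the other comparisons. Counting error is widest for the ligand genes, of which 17 had no count, and for Ifi44, at 0.472 to 3.80 CPM.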

Other observations

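A list of 17 genes typical of the interferon-gamma response was read beside the module. With LPS in GW mice Gbp7, a guanylate-binding protein, rose by 1.54 ± 0.22 and Gbp3 by 0.80 ± 0.22, while Ciita, the master regulator of class II antigen presentation (-2.26 ± 0.44), the immunoproteasome gene Psmb9 (-0.88 ± 0.19) and Tgtp2 (-1.24 ± 0.32) fell. These were 5 of 17 genes, where 9.53% of all genes passed. The Gbp3 call was lost in 5 of 15 fits and the Tgtp2 call in 4, both without GW-LPS replicate 4 among others. In control mice 6 genes rose with LPS, where 10.8% of all genes rose, namely Gbp7 (1.59 ± 0.21), Gbp2 (1.37 ± 0.21), Irgm1 (0.92 ± 0.14), Gbp3 (1.02 ± 0.20), Igtp (0.59 ± 0.13) and Tap1 (0.64 ± 0.18), and 1, Ciita, fell (-2.13 ± 0.40). The Igtp and Tap1 calls were lost without the 3 libraries with raised neutrophil markers. None of the 17 passed in GW-CBD mice. After LPS, Gbp7 was lower in GW-CBD-LPS (103 ± 40.8 CPM) than in GW-LPS (193 ± 25.03 CPM; -0.90 ± 0.22, adjusted p = 0.0336), a call lost in 8 of 15 fits, and than in Ctrl-LPS (199.5 ± 30.8 CPM; -0.95 ± 0.21, adjusted p = 0.00458), a call that held in all fits. Gbp2 (-0.71 ± 0.21) and Igtp (-0.38 ± 0.13) were also lower in GW-CBD-LPS than in Ctrl-LPS, calls lost in 5 and 12 of 16 fits. The promoters of 9 of 18 members that rose with LPS in control mice held the ISRE core, as did those of 6 of the 12 other members in the promoter table.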
